A study of Mus musculus with 6 samples.

Results

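Border-associated macrophage markers were followed as 9 genes, Mrc1, Cd163, Lyve1, Pf4, Stab1, F13a1, Cbr2, Ms4a7 and Folr2, taken by symbol from a count table of 55493 genes, and each symbol matched a single gene. The RNA came from 6 libraries of brain cells gated as CD45-low and CD11b-positive, which is the gate for microglia. The genotype was ILT Telo Tg x 5XFAD throughout, that is, the ILT-Telo transgene, which was used to study human LILRB4 in mouse microglia, on a model of amyloid deposition, and the labels do not give what drives the transgene. The males entered treatment at 4 months of age and were injected into the peritoneum once a week, over 8 weeks, with antibody at 60 mg/kg. In 3 libraries this was Fc-mutant anti-LILRB4 (clone ZM3.1; LILRB4, or ILT3, is an inhibitory receptor of myeloid cells), and in the other 3 the Fc-mutant control antibody Ctrl IgG2a (clone 27D6). One hemisphere of each perfused brain was used. Every mouse carried the transgene and the amyloid model, so no group without them was compared. Whether each library was 1 animal is not stated in the labels, and p-values therefore cover only library-to-library spread, which may be technical. Total counts were between 39805118 and 56345514 per library.

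Border-associated macrophages are the resident macrophages of the meninges, the perivascular spaces and the choroid plexus. They clear material from blood and cerebrospinal fluid through scavenger and lectin receptors, and they usually carry more CD45 on their surface than microglia do. Fewer cells of a type and less RNA per cell cannot be told apart in bulk RNA.

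The sorted cells carried the markers of their labelled type. P2ry12, a purinergic receptor of microglia, was at no less than 11245 CPM (reads of a gene per 1000000 reads of the library, with TMM scaling) in any library, Tmem119 at no less than 3479.7 and Csf1r, the receptor for colony-stimulating factor 1, at no less than 1874. A list of 13 microglia markers summed to between 53368 and 57892 CPM per library, while the 9 border macrophage markers summed to between 197 and 330.1 CPM. Most of the smaller sum was Stab1, which gave between 73.2% and 86.0% of it. Without Stab1 the other 8 markers summed to 52.7, 38.2 and 45.2 CPM in control libraries 1, 2 and 3 and 45.7, 46.1 and 76.8 CPM in anti-LILRB4 libraries 1, 2 and 3. Anti-LILRB4 library 3 stood highest in that sum and the other treated libraries lay within the range of the controls. Relative to the microglia list, the sum of these 8 markers was 0.828 ± 0.154 per 1000 CPM of microglia markers in controls and 0.981 ± 0.309 in treated libraries (SD, n = 3 each).

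To compare the genes with one another, CPM was divided by exon length in kilobases (RPKM). Pf4, at 21.2 ± 8.00 RPKM (mean and SD over the 6 libraries), and Stab1, at 21.2 ± 4.49 RPKM, were the most abundant markers, and both lay above 87.9% of all genes tested. Pf4 exceeded Stab1 in 2 of 6 libraries, so this pair did not differ beyond its spread. Cbr2 followed at 3.23 ± 1.39 RPKM and exceeded the next gene, Ms4a7, at 2.44 ± 0.787 RPKM, in 4 of 6 libraries. Mrc1 was at 1.69 ± 0.514 RPKM, below Ms4a7 and above F13a1 in all 6 libraries. F13a1 was at 0.934 ± 0.325 RPKM and Cd163 at 0.429 ± 0.247 RPKM, with F13a1 the higher in 5 libraries. The least abundant were Lyve1, at 0.217 ± 0.119 RPKM, and Folr2, at 0.189 ± 0.101 RPKM, which exchanged places from library to library. For scale, Csf1r was at 566 RPKM and P2ry12 at 5057 RPKM.

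**Figure D1:**
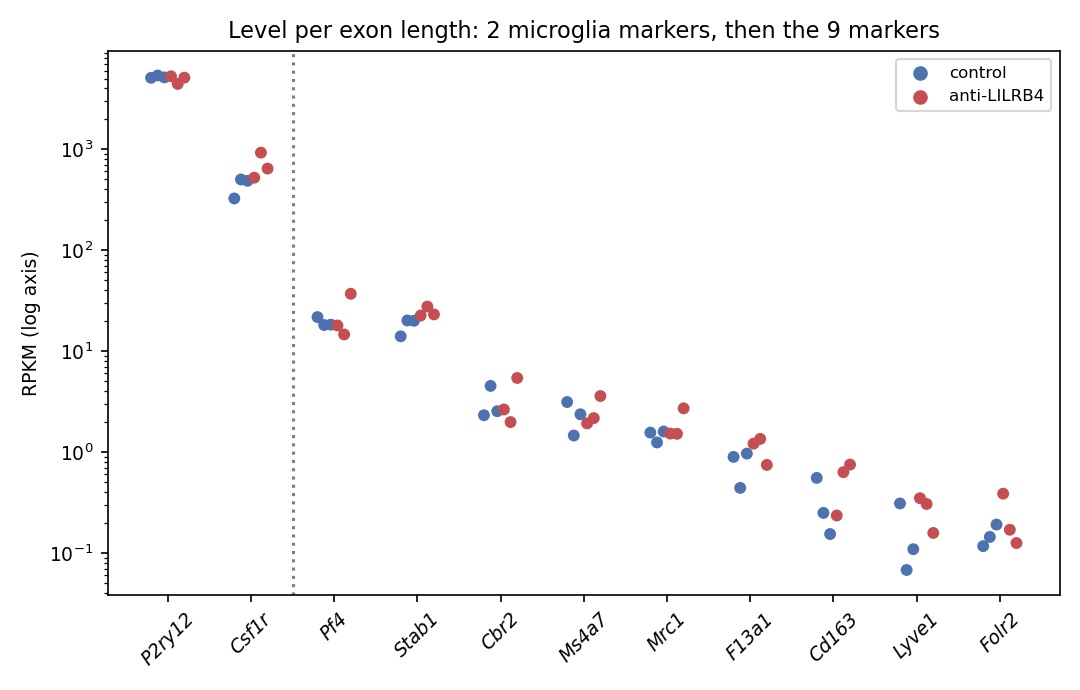
Level per exon length (RPKM, log axis) of P2ry12 and Csf1r and of the 9 border macrophage markers, with 1 point for each library, blue for control and red for anti-LILRB4. All markers sit below Csf1r, and Pf4 and Stab1 sit above the other 7.

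The bases before the start of 4 of these genes are shown because they fall into pairs that peaked in different treated libraries, Stab1 and F13a1 in library 2 and Pf4 and Mrc1 in library 3, as described further on, while all 4 hold the PU.1 core. The sequences are RefSeq's (GRCm38.p6), each the 250 bases before a start, 5′ to 3′ on the gene's strand. Capitals mark matches on either strand to GAGGAA, the core bound by PU.1 (the factor that sets macrophage identity), or to TGCTGA, a half-site for MAF factors. Stab1 lies at chr14:31168642-31168891 on the minus strand, Pf4 at chr5:90772185-90772434 on the plus strand, Mrc1 at chr2:14229164-14229413 on the plus strand and F13a1, from the first of its 2 starts, at chr13:37050245-37050494 on the minus strand.
Stab1: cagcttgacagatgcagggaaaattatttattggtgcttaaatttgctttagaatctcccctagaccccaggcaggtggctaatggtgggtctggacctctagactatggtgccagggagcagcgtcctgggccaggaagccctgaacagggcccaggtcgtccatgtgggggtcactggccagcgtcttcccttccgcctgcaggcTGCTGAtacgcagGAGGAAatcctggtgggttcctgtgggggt
F13a1: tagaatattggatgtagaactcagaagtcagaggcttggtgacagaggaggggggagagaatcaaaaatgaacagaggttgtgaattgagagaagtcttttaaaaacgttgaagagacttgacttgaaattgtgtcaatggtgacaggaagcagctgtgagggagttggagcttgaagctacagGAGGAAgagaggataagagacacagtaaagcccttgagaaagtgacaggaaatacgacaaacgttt
Pf4: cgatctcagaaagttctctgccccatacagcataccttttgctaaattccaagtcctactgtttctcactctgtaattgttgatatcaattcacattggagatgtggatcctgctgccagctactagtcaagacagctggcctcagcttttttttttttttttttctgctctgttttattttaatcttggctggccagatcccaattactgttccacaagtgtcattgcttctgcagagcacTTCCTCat
Mrc1: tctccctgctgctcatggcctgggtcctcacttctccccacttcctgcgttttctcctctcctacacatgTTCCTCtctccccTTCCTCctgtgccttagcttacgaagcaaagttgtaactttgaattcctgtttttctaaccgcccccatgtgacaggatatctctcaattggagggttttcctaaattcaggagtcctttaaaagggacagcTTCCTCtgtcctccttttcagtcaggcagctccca
RefSeq entries were matched for 8 of the 9 markers, all but Lyve1, with 11 starts in all. GAGGAA was present before a start of 5 of these 8 genes (Mrc1, Pf4, Stab1, F13a1 and Cbr2). Counted by window it was before 5 of the 11 starts, against 23.4% of 32544 windows of the same length over all RefSeq starts. The second start of F13a1 held no match. Of the other markers that peaked in anti-LILRB4 library 3, Cbr2 held a match and Cd163 and Ms4a7 held none. TGCTGA was present before starts of Stab1 and Folr2, in 3 of the 11 windows, against 16.1% of all windows. The motif CACGTG, bound by the MiT/TFE factors, matched in 0 of the 11 windows and in 6.03% of all. A match of letters is a description of the window and not a measured binding site.

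All 9 markers had a higher fitted level in the anti-LILRB4 libraries than in controls, but no difference passed the test across all genes. In edgeR's quasi-likelihood test 0 of 9 had a Benjamini-Hochberg adjusted p under 0.05, with the smallest at 0.523, in a comparison that called 0% of 18210 genes. At an unadjusted p under 0.05 there was 1 of 9, Stab1, where 4.12% of all genes were higher at that level. DESeq2 called 0 of 9, with no adjusted p for Folr2, and 0.928% of all genes. In limma-voom 0 of 9 and 0% of all genes were called. The median log2 fold change (treated minus control) was 0.44 for the markers, with a range of 0.096 to 0.75, beside -0.0068 for all genes tested, of which 49.1% were above 0. Only Stab1 had all treated libraries above all controls, which 6.94% of all genes showed. The shared sign rested in part on anti-LILRB4 library 3. With that library left out, 6 of the 9 fold changes were above 0, and Pf4, Ms4a7 and Cbr2 were at log2 values of -0.25, -0.18 and -0.44.

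**Figure D2:**
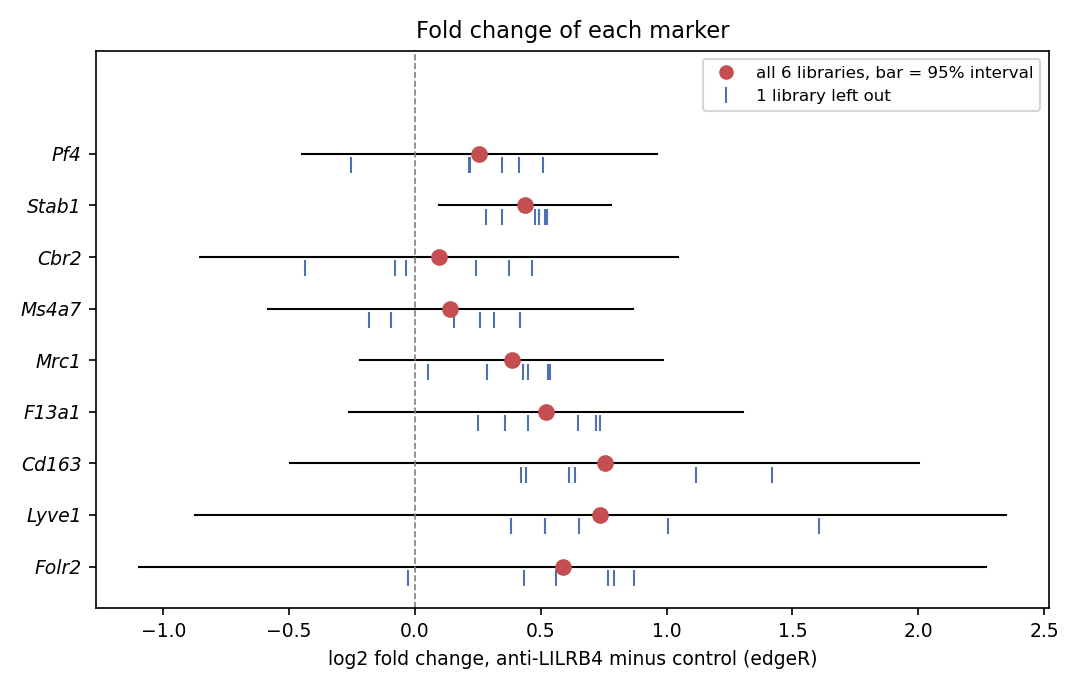
Log2 fold change of each marker, anti-LILRB4 minus control, with 95% intervals from edgeR on all 6 libraries (red point, black bar) and the values with 1 library left out (blue ticks). The interval of Stab1 alone lies above 0, and the ticks of Pf4, Cbr2, Ms4a7 and Folr2 fall on both sides of 0.

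The scavenger and lectin receptors were Stab1, Mrc1, Cd163 and Lyve1. Stab1, which takes up modified lipoproteins and matrix proteins such as SPARC, was at 144, 207 and 205 CPM in control libraries 1, 2 and 3 and 231, 284 and 237 CPM in anti-LILRB4 libraries 1, 2 and 3. Every treated library lay above every control, and control library 1 was the lowest of all. The means were 185 ± 35.8 CPM in controls and 251 ± 28.9 CPM in treated libraries (SD, n = 3 each), a log2 fold change of 0.44 (standard error 0.15, 95% interval 0.096 to 0.78, edgeR adjusted p 0.523), with an unadjusted p of 0.0172. Without control library 1 the log2 fold change was 0.28, with an unadjusted p of 0.0408 in edgeR. Without anti-LILRB4 library 2, the highest, the log2 fold change was 0.35, and the unadjusted edgeR p rose to 0.0661. Leaving out any other library gave an unadjusted edgeR p between 0.0148 and 0.0268. The gene (ENSMUSG00000042286, chromosome 14, 31139013 to 31168641, minus strand, GRCm38) shares exon sequence with Nt5dc2, itself at 0.904 to 2.28 CPM, and the library kit does not mark strand. The microglia list moved in the same libraries, with 10 of its 13 genes lowest in control library 1. The share of all genes lowest in that library was not computed. For 5 of the 13 every treated library lay above every control, which 6.94% of all genes showed. The microglia list summed to 53368 to 56161 CPM in controls and 56582 to 57892 CPM in treated libraries, and its part in the Stab1 difference was not tested.

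Mrc1, encoding the mannose receptor CD206, was at 9.92, 7.93 and 10.2 CPM in control libraries 1, 2 and 3 and 9.70, 9.65 and 17.2 CPM in anti-LILRB4 libraries 1, 2 and 3. A single treated library, the third, stood above the rest, and the other 5 lay between 7.93 and 10.2 CPM. Its log2 fold change was 0.38 (standard error 0.27, 95% interval -0.22 to 0.99, edgeR adjusted p 0.768), and it was 0.051 without that library. Mrc1 lies on chromosome 2, 14229392 to 14332057, on the plus strand (ENSMUSG00000026712).

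Cd163, the receptor for haemoglobin bound to haptoglobin, was at 3.03, 1.36 and 0.841 CPM in control libraries 1, 2 and 3 and 1.28, 3.45 and 4.10 CPM in anti-LILRB4 libraries 1, 2 and 3. It varied 4.87-fold between the lowest and the highest library, and the groups overlapped, since control library 1 exceeded anti-LILRB4 library 1. The log2 fold change was 0.75 (standard error 0.56, 95% interval -0.49 to 2.0, edgeR adjusted p 0.779). Leaving out control library 1, the highest control, gave 1.42, leaving out control library 3, the lowest, gave 0.42, and leaving out anti-LILRB4 library 3 gave 0.44. The gene is on chromosome 6, 124304656 to 124330527, plus strand (ENSMUSG00000008845).

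Lyve1, a hyaluronan receptor of perivascular macrophages and of lymphatic endothelium, was at 0.904, 0.198 and 0.318 CPM in control libraries 1, 2 and 3 and 1.02, 0.893 and 0.461 CPM in anti-LILRB4 libraries 1, 2 and 3. The low end was control library 2 with 8 reads (exact 95% Poisson interval 3.45 to 15.8) and the high count was anti-LILRB4 library 2 with 51 reads (exact 95% Poisson interval 38.0 to 67.1), intervals that cover counting error only. Control library 1 lay with the higher treated libraries, so the groups overlapped. The log2 fold change was 0.74 (standard error 0.72, 95% interval -0.87 to 2.35, edgeR adjusted p 0.832), and it was 1.60 without control library 1 and 0.38 without control library 2. The gene is ENSMUSG00000030787, chromosome 7, 110850607 to 110863239, minus strand. Markers of lymphatic endothelium, 5 genes of which 2 were tested, summed to 4.34 to 6.73 CPM in controls and 5.82 to 8.84 CPM in treated libraries, led by Prox1 and Reln. Prox1, the transcription factor of lymphatic identity, was at 5.96, 4.33 and 4.05 CPM in control libraries 1, 2 and 3 and 8.11, 6.62 and 5.73 CPM in anti-LILRB4 libraries 1, 2 and 3, with a log2 fold change of 0.51 (standard error 0.27, 95% interval -0.095 to 1.12, edgeR adjusted p 0.675), and it was highest in anti-LILRB4 library 1, as Lyve1 was. For Reln, a secreted glycoprotein, the log2 fold change was -2.25 (standard error 0.88, 95% interval -4.21 to -0.28, edgeR adjusted p 0.566). Pdpn had 29 reads in anti-LILRB4 library 1, 1 in library 2 and 0 in the other 4 libraries, Flt4 was at no more than 0.0910 CPM, and Ccl21a was at 0 in every library. The part of lymphatic endothelial RNA in the Lyve1 values was not tested.

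Folr2, the folate receptor of tissue macrophages, was the marker with the fewest reads, from 8 to 27 per library. Its levels were 0.181, 0.223 and 0.296 CPM in control libraries 1, 2 and 3 and 0.598, 0.263 and 0.194 CPM in anti-LILRB4 libraries 1, 2 and 3. Anti-LILRB4 library 1 was the highest, with 27 reads (exact 95% Poisson interval 17.8 to 39.3), and the lowest count was 8 reads (exact 95% Poisson interval 3.45 to 15.8), in control library 1 and in anti-LILRB4 library 3 alike. The log2 fold change was 0.59 (standard error 0.75, 95% interval -1.09 to 2.27, edgeR adjusted p 0.875), and it was -0.026 without anti-LILRB4 library 1. Exons of Folr2 overlap those of Gm10602, which was at 0.723 to 1.93 CPM, above Folr2 itself, so the split of reads between them is uncertain. The gene is ENSMUSG00000032725, chromosome 7, 101839988 to 101857194, minus strand. Anti-LILRB4 library 1, where Folr2 and Lyve1 peaked, was also highest in the mean level of astrocyte markers (0.85 on the log2 scale above the mean of the 6 libraries, 6 genes), oligodendrocyte markers (0.95, 6 genes), blood vessel endothelial markers (0.46, 8 genes), lymphatic endothelial markers (0.38, 5 genes), fibroblast and pericyte markers (0.55, 8 genes, against 0.53 in library 3) and platelet markers (0.59, 8 genes). The neuron list was not (0.10, against 0.29 in control library 1). These means weigh each gene alike. Only 3 of 8 platelet, 3 of 8 endothelial, 2 of 5 lymphatic and 1 of 8 fibroblast and pericyte genes were tested. Slc1a3 and Mag, the most abundant astrocyte and oligodendrocyte genes, were highest in anti-LILRB4 library 3 instead. They were at 286 and 39.4 CPM there, against 261 and 33.6 CPM in library 1. By sum, astrocyte genes were at 255 to 281 CPM in controls and 247 to 290.0 CPM in treated libraries, led by Slc1a3 and Aldoc, oligodendrocyte genes at 49.3 to 63.8 CPM in controls and 52.7 to 74.5 CPM in treated libraries, led by Mag and Mbp, and endothelial genes at 7.68 to 19.2 CPM in controls and 11.6 to 21.2 CPM in treated libraries, led by Pecam1 and Flt1. Fibroblast and pericyte genes, of which 1 was tested and Rgs5 was at 0 in every library, were led by Pdgfrb and Col1a2. They summed to 0.136 to 0.655 CPM in controls and 1.12 to 1.86 CPM in treated libraries. The groups did not overlap, but the sums hold few reads, and no share over all genes is available for a sum. Vtn gave 46 reads in anti-LILRB4 library 1 and no more than 1 in any other library, and Pdgfrb gave 50 in anti-LILRB4 library 2. Neuron genes, 2 of 6 tested, summed to 0.978 to 1.29 CPM in controls and 0.735 to 1.13 CPM in treated libraries, led by Snap25 and Rbfox3. The part of these cells in the Folr2 and Lyve1 values was not tested.

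**Figure D3:**
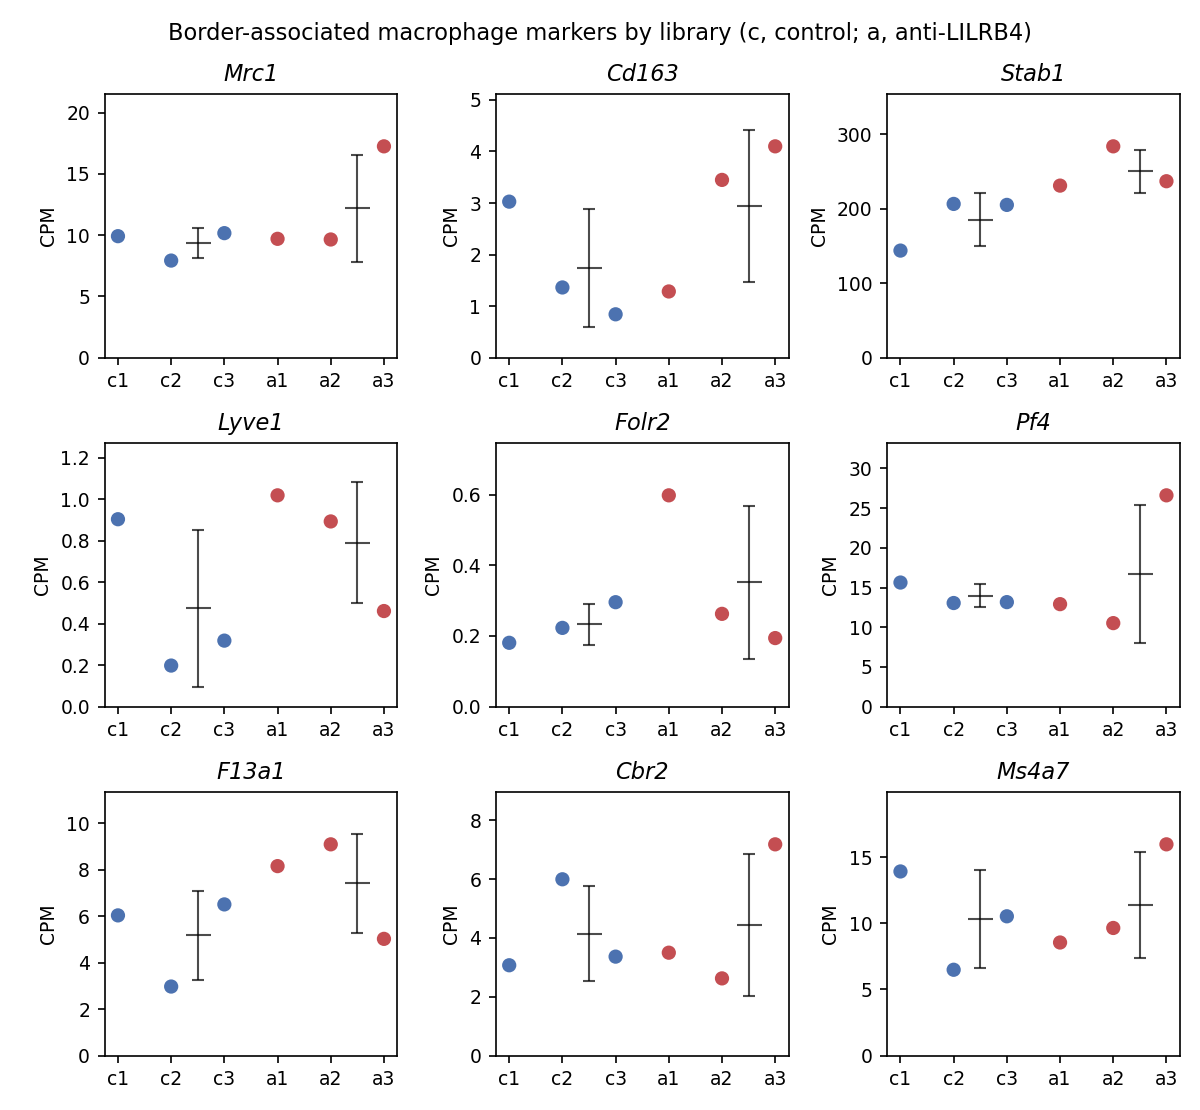
CPM of each of the 9 markers in the 6 libraries (c, control; a, anti-LILRB4), with the mean and SD of each group in black; each vertical axis starts at 0. Stab1 alone has all treated points above all control points, and library a3 is the highest for Mrc1, Cd163, Pf4, Cbr2 and Ms4a7.

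The secreted proteins were Pf4 and F13a1. Pf4, a chemokine (CXCL4) of platelets and of border macrophages, was at 15.6, 13.1 and 13.2 CPM in control libraries 1, 2 and 3 and 12.9, 10.5 and 26.6 CPM in anti-LILRB4 libraries 1, 2 and 3. It lay between 10.5 and 15.6 CPM in 5 libraries and stood above them in anti-LILRB4 library 3, and its log2 fold change was 0.26 (standard error 0.32, 95% interval -0.45 to 0.96, edgeR adjusted p 0.871). The gene is ENSMUSG00000029373, chromosome 5, 90772435 to 90773383, plus strand. Platelet genes were measured beside it. Ppbp, the other abundant platelet chemokine, had 0 reads in 5 libraries and 6 reads in anti-LILRB4 library 1, and Gp1bb had 0 reads in all 6, where a count of 0 allows up to 3 reads. Gp9, a subunit of the platelet glycoprotein receptor, was the most abundant of 8 platelet genes in CPM, at 19.2, 14.4 and 18.9 CPM in control libraries 1, 2 and 3 and 23.0, 28.9 and 35.5 CPM in anti-LILRB4 libraries 1, 2 and 3. Every treated library lay above every control for Gp9, which 6.94% of all genes showed. Its log2 fold change was 0.74 (standard error 0.20, 95% interval 0.29 to 1.19, edgeR adjusted p 0.438), and DESeq2 gave an adjusted p of 0.0452. DESeq2 called 1 of the 3 platelet genes tested, Gp9, beside 0.928% of all genes, and gave Itga2b no adjusted p. The next, Treml1, was at 1.43 ± 0.467 CPM in controls and 0.867 ± 0.165 CPM in treated libraries (SD, n = 3 each), with a log2 fold change of -0.72 (standard error 0.48, 95% interval -1.79 to 0.35, edgeR adjusted p 0.750), so the fold changes of these platelet genes differed in sign. The part of platelet RNA in the Pf4 values was not tested.

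F13a1, the A subunit of coagulation factor XIII, which monocytes and megakaryocytes also express, was at 6.03, 2.97 and 6.50 CPM in control libraries 1, 2 and 3 and 8.15, 9.09 and 5.02 CPM in anti-LILRB4 libraries 1, 2 and 3. Anti-LILRB4 libraries 1 and 2 were the highest, but library 3 lay below controls 1 and 3. The log2 fold change was 0.52 (standard error 0.35, 95% interval -0.26 to 1.30, edgeR adjusted p 0.751) and was 0.25 without control library 2, the lowest. The gene is ENSMUSG00000039109, chromosome 13, 36867178 to 37050244, minus strand. Monocyte markers, 10 genes of which 7 were tested, summed to 48.1 to 105 CPM in controls and 30.5 to 86.1 CPM in treated libraries, with Chil3 and Ccr2 the most abundant. F10 was at 0 in 5 of the 6 libraries, and Ly6c2, which marks classical monocytes, was at 1.75 to 8.31 CPM. By library the monocyte sum was 105, 48.1 and 58.5 CPM in control libraries 1, 2 and 3 and 38.0, 86.1 and 30.5 CPM in anti-LILRB4 libraries 1, 2 and 3. F13a1 was highest in anti-LILRB4 library 2, where the monocyte list was second highest by sum and by mean centred log2 level (0.57). It was lowest in control library 2, where the monocyte list was lowest by mean centred level (-0.59) but not by sum. At 48.1 CPM, that sum lay above those of anti-LILRB4 libraries 1 and 3. Anti-LILRB4 library 1, with the second highest F13a1, had a lower monocyte sum than any control. Neutrophil markers, 10 genes, summed to 571 to 1337 CPM in controls and 135 to 1129.5 CPM in treated libraries, led by S100a8 and Ngp. Treated libraries 1 and 3 held the lowest neutrophil sums, and the part of these cells in the marker levels was not tested.

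The remaining markers were an enzyme and a membrane protein. Cbr2, carbonyl reductase 2, was at 3.07, 5.99 and 3.37 CPM in control libraries 1, 2 and 3 and 3.50, 2.63 and 7.18 CPM in anti-LILRB4 libraries 1, 2 and 3. Its lowest value and its highest both fell in the treated group, and control library 2 was second highest. The log2 fold change was 0.096 (standard error 0.43, 95% interval -0.85 to 1.05, edgeR adjusted p 0.973). The gene is ENSMUSG00000025150, chromosome 11, 120729489 to 120732114, minus strand. Ms4a7, a tetraspan membrane protein used to separate border macrophages and blood-derived macrophages from microglia, was at 13.9, 6.49 and 10.5 CPM in control libraries 1, 2 and 3 and 8.55, 9.65 and 16.0 CPM in anti-LILRB4 libraries 1, 2 and 3. Control library 1 and anti-LILRB4 library 3 were the high pair. Its log2 fold change was 0.14 (standard error 0.33, 95% interval -0.58 to 0.87, edgeR adjusted p 0.945). The gene is ENSMUSG00000024672, chromosome 19, 11321039 to 11336146, minus strand.

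The markers did not vary as a unit. Of the 9, 5 had their highest value in anti-LILRB4 library 3 (Mrc1, Cd163, Pf4, Cbr2 and Ms4a7), 2 in library 1 (Lyve1 and Folr2) and 2 in library 2 (Stab1 and F13a1), so that all 9 peaked in a treated library. Among all genes tested, 48.4% peaked in a treated library and 16% in anti-LILRB4 library 3. The lowest value fell in control library 2 for 4 markers, in control library 1 for 2, in anti-LILRB4 library 2 for 2 and in control library 3 for 1. Profiles were set against each other by the root mean square difference of log2 CPM after centring each gene on its mean. Over the 36 pairs the nearest were Mrc1 and Pf4 (0.204) and Mrc1 and Ms4a7 (0.247), and the farthest was Lyve1 and Cbr2 (1.20). The CPM ratio of F13a1 to Cbr2 shows the divergence. It was 1.96, 0.496 and 1.93 in controls 1, 2 and 3 and 2.33, 3.46 and 0.699 in treated libraries 1, 2 and 3, so the gene with more reads changed from library to library in both groups. By contrast the ratio of Mrc1 to Pf4 stayed between 0.607 and 0.917.

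**Figure D4:**
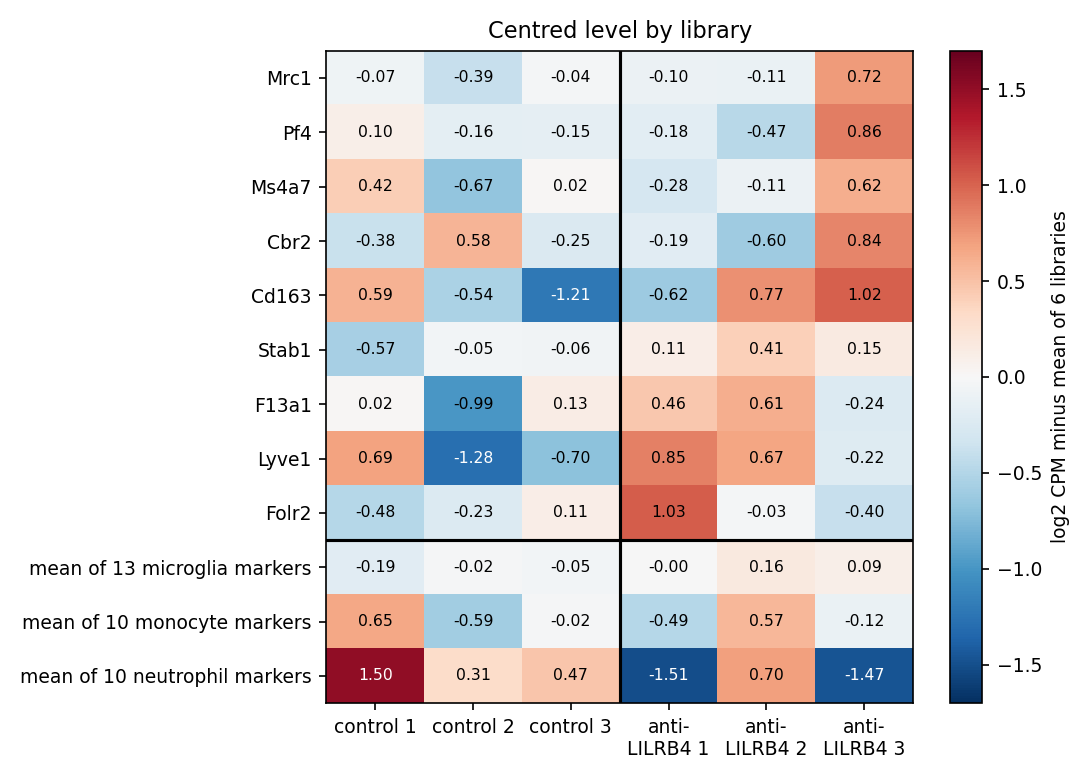
Log2 CPM of each marker minus its mean over the 6 libraries (colour and printed value), with the mean of the microglia, monocyte and neutrophil markers in the lower 3 rows. Anti-LILRB4 library 3 is the highest for the upper 5 markers, while F13a1, Lyve1 and Folr2 are below their means there.

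The markers also differed in how near they lay to the microglia list. For Stab1 the distance to the mean profile of the 13 microglia markers was 0.194, against 0.374 to the mean of the other 8 markers. Cbr2 (0.516 against 0.649) and Folr2 (0.502 against 0.629) also had the smaller distance to the microglia list. Folr2 was nearer still to the mean of MHC class II genes (0.461) and of other border macrophage genes (0.489). The microglia mean varied little between libraries (-0.19 to 0.16 on the log2 scale). A distance to it is therefore mostly the gene's own spread for genes as variable as Cbr2 and Folr2, and shows no likeness. The remaining 6 were nearer to the other markers than to the microglia list. Mrc1 was at 0.244 against 0.326, Ms4a7 at 0.342 against 0.453, and F13a1 at only 0.499 against 0.506. The limit given for Cbr2 and Folr2 also applies to Cd163 (0.747 against 0.799) and Lyve1 (0.737 against 0.803). Lyve1 was nearer still to the MHC class II mean (0.731). Pf4, F13a1 and Ms4a7 were nearer still to the mean of other border macrophage genes (0.383, 0.438 and 0.330). Among the 13 microglia markers Sall1, a transcription factor of microglia, was nearest to Stab1, at 0.133, with log2 fold change 0.49. These distances are over 6 libraries that share depth and composition and are descriptions without a test.

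Other genes of border macrophages, 28 by a list from general knowledge, lay on both sides of 0. Of the 25 that were tested, 16 had a log2 fold change above 0 and 9 below it, with a median of 0.13. None was called, 0 of 25, whether by edgeR, DESeq2 or limma-voom, though DESeq2 gave Cd209g and Fcna no adjusted p. At an unadjusted p under 0.05, 3 were higher and 1 lower, beside 8.03% of all genes in either direction. In 2 all treated libraries lay above all controls and in 1, Cd209f, below (5.74 ± 0.540 CPM against 4.71 ± 0.565 CPM, SD, n = 3 each), beside 14.7% of all genes in either direction. The smallest p-values belonged to Clec4n (dectin-2, a C-type lectin), Nrp1 (a semaphorin and VEGF co-receptor), Tgfbi (a secreted matrix protein), Mgl2 (a galactose-binding lectin), Lilra5 and Cd209g. Clec4n was at 4.31, 1.31 and 2.11 CPM in control libraries 1, 2 and 3 and 0.797, 1.47 and 0.509 CPM in anti-LILRB4 libraries 1, 2 and 3, a log2 fold change of -1.47 (standard error 0.56, 95% interval -2.72 to -0.22, edgeR adjusted p 0.560), with overlapping groups. Mgl2 was at 1.73 ± 0.704 CPM in controls and 3.37 ± 1.06 CPM in treated libraries (SD, n = 3 each), a log2 fold change of 0.97, and its treated libraries all lay above the controls. Nrp1 did the same, with a log2 fold change of 0.38, and was the nearest to Stab1 of the 89 tested genes of the other lists (distance 0.0828). Tgfbi, Lilra5 and Cd209g had log2 fold changes of 0.44, -0.24 and -1.37. The exons of Nrp1 overlap those of Mir1903. Vsig4, Timd4 and Colec12 were below the count filter and were not tested.

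MHC class II genes, which mark a separate subset of border macrophages low in Lyve1, gave a median log2 fold change of 0.038 over 7 genes, 5 above 0 and 2 below. The most abundant, H2-DMa and H2-DMb1, had log2 fold changes of 0.042 and -0.10, and Cd74, the invariant chain, 0.92 (standard error 0.18, 95% interval 0.53 to 1.32, edgeR adjusted p 0.410). DESeq2 called 1 of the 7, Cd74, beside 0.928% of all genes, and edgeR and limma-voom called 0 of the 7. Dendritic cell genes, 8 of which 5 were tested, summed to 9.05 to 15.9 CPM in controls and 9.57 to 10.8 CPM in treated libraries, led by Zbtb46 and Xcr1.

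**Figure D5:**
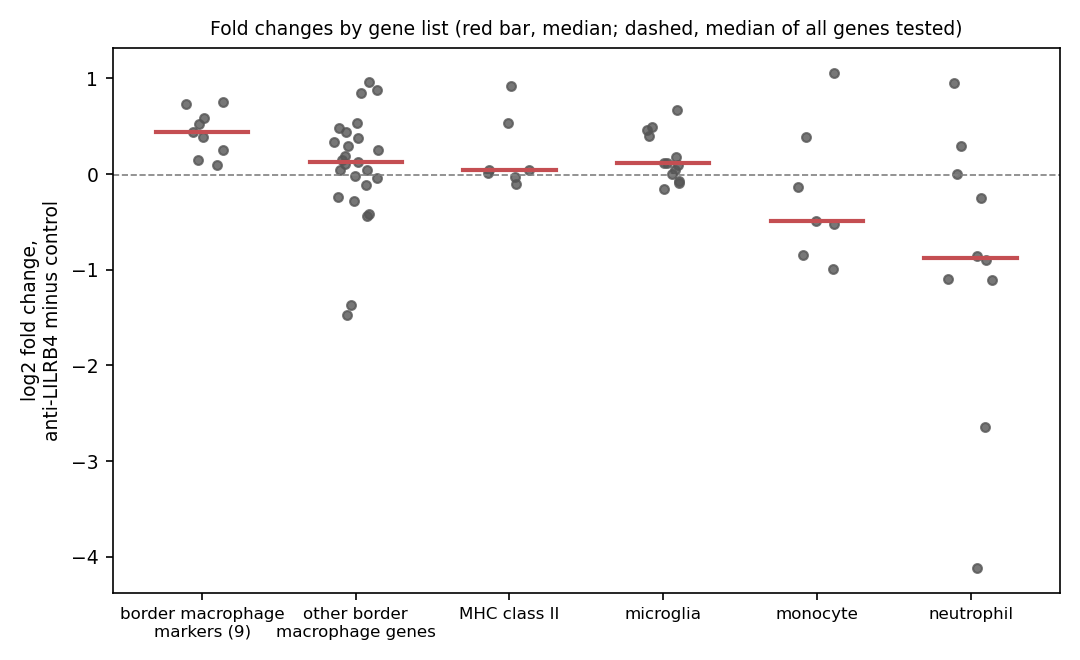
Log2 fold change (anti-LILRB4 minus control) of each tested gene of 6 gene lists, with the list median in red and the median of all genes tested dashed. All 9 border macrophage markers are above 0, while the other border macrophage genes spread to both sides.

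The 5 protein-coding genes whose profile was nearest to the mean of the 9 markers, among 10011 with a mean log2 CPM of at least 1, were Borcs7, Sf3a3, Tamm41, Foxred1 and Rtca. The root mean square difference was between 0.0408 for Borcs7 and 0.0709 for Rtca, against a median of 0.332 over those genes. Borcs7 was at 20.9, 15.9 and 16.8 CPM in controls and 22.9, 22.6 and 25.6 CPM in treated libraries. The mean profile itself was lowest in control library 2 (-0.42 on the log2 scale) and highest in anti-LILRB4 library 3 (0.37). Exons of Rtca overlap those of Gm26530.

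In the authors' deposited table the same 9 genes had log2 fold changes from 0.10 (Cbr2) to 0.76 (Cd163), all above 0. For Stab1 the authors' deposited table gives a log2 fold change of 0.44, a p-value of 0.00806 and an adjusted p of 0.214. For the other 8 the adjusted p in the authors' deposited table is between 0.704 and 0.980.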

How the data were processed

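RNA was sequenced from 3 control and 3 anti-LILRB4 libraries, grouped by sample title. The authors deposited whole-number read counts per Ensembl gene, not normalized. Per the submitters' processing notes the tools include STAR, featureCounts, Salmon and DESeq2 1.38.3, with no roles given. The genome build and the rule for ambiguous reads were not given in the sources used here. A second deposited table holds, per the file headers, the mean of size-factor-scaled counts (a signal), a log2 fold change with its standard error, a score that is their quotient, and raw and adjusted p-values. Per the labels' protocols cDNA was made with a low-input kit, which does not mark strand.

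After 287 repeated rows were dropped, counts were fitted with edgeR 4.0.16 under R 4.3.3, as the main test: filterByExpr (minimum count 10, 18210 genes, all 9 markers among them), TMM, quasi-likelihood F test, no covariate, Benjamini-Hochberg over all genes. Folr2 reached the filter's cutoff (0.225 CPM) in 2 controls and 2 treated libraries, and Lyve1 in 2 and 3. DESeq2 1.42.0 and voom in limma 3.58.1 were alternatives, with others of scaling, filter, dispersion, replicate block and left-out libraries. Log2 CPM used a prior count of 2. Coordinates and exon lengths are those of GENCODE M21 (GRCm38), joined by Ensembl identifier. On simulated counts with 200 of 17524 genes changed, edgeR recovered 40.0% of changes of 1 and 68.0% of changes of 2 (log2), with 6 false calls, and DESeq2 recovered 54.0% and 76.0%, with 40 false calls. No change below 1 was simulated. The largest log2 fold change of a marker was 0.75, so these shares do not apply to changes as small as the markers'. No replicate pair agreed within sampling noise (chi-square per degree of freedom at least 22.4).

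The 9 markers, the gene lists and the tests were chosen with earlier results of these data known. Named were the 9 markers, the 6 other border macrophage genes with the smallest p, the 5 nearest profiles (root mean square difference), the 2 most abundant genes of other lists (for the microglia list these are not reported here), and P2ry12, Tmem119 and Csf1r. Rgs5, Vtn, Pdpn, Cd74, Cd209f, Sall1, Ppbp, Gp1bb, Ccl21a, Flt4, Ly6c2 and F10 were named after their values were seen. So were Itga2b, Tubb1, Gp1ba, Gp6 and Fcna. Figures used matplotlib 3.10.9.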

Additional observations from a re-analysis of the deposited data

How the results depend on the processing

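The count of markers called was 0 under all 15 alternatives, and their median log2 fold change stayed between 0.38 and 0.51. The count of all genes called was 0 except with DESeq2 (169) and with no filter on low counts (300 of 35404 genes). Single marker values kept their sign in 125 of 133 refits. The 8 exceptions were Cbr2 with limma-voom (-0.00568) and leave-one-out fits, whose log2 fold changes ranged over -0.44 to 0.47 for Cbr2, -0.18 to 0.42 for Ms4a7, -0.25 to 0.51 for Pf4 and -0.026 to 0.87 for Folr2. The cause was not tested. Folr2 and Lyve1 were below a filter of 1 CPM in 3 libraries, so that setting gave them no value, and DESeq2 gave Folr2 no adjusted p.

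The replicate numbers are shared between groups, but same-numbered libraries did not deviate together (correlations of deviations 0.0136, 0.0290 and -0.0138). With a replicate block the markers' median was 0.45, Stab1 was at 0.45, and 0 genes were called. Read counts limit Folr2 and Lyve1 most.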
